A study of Mus musculus with 6 samples.

Results

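The replication-dependent histone genes were taken as every symbol of the deposited count table that begins with Hist1h, Hist2h, Hist3h or Hist4h, with 1 symbol marked as a pseudogene by its -ps ending left out. This gave 69 genes of 35178 symbols. By the class in their names, 6 belong to linker histone H1, 20 to H2A, 18 to H2B, 12 to H3 and 13 to H4. By cluster, 56 are named Hist1 (chromosome 13), 10 Hist2 (chromosome 3), 2 Hist3 (chromosome 11) and 1 Hist4 (chromosome 6). Each of the 69 was found in the GENCODE M21 annotation of the mouse build GRCm38, which is the assembly also called mm10.

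The RNA came from Ter119+ cells of the spleen, erythroid cells carrying the surface marker Ter119, of mice with sickle cell disease aged 2 to 3 months on a mixed B6;129P2 background. The KO group (3 libraries) lacked Nrf2, and the WT group (3 libraries) was wild type for it, so both groups share the sickle cell disease background. The comparison asks how the erythroid transcriptome of these mice differs without Nrf2, a transcription factor of the antioxidant response. The labels do not name the sickle model or the deleted part of the gene. Whether each library comes from a separate animal is not stated either, and p-values therefore reflect library-to-library spread that could be technical.

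Core histones H2A, H2B, H3 and H4 form the protein spool of the nucleosome, and H1 binds the linker DNA between spools. Most of their messages are made in S phase, when the genome is copied, and unlike other messages they end in a short hairpin instead of a poly(A) tail. The hairpin is bound by the protein Slbp. Some histone genes can also yield polyadenylated messages, mainly outside of S phase or in cells that are differentiating. The library kit named in the labels, TruSeq version 2, selects polyadenylated RNA in its standard protocol, which captures messages without a tail poorly.

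The hairpin itself was visible in the annotated transcripts of the genes that carry the values below. It was searched as a stem of 6 bases that starts with GG, a loop of 4 bases that starts with TT and holds no G, and the stem's reverse complement, within 100 bases after the stop codon. Of the 67 members with a coding sequence, 43 (64.2%) held such a hairpin, and of the 50 with at least 50 annotated bases after the stop codon it was 43 (86.0%). Among 21610 other protein-coding genes, 6 (0.0278%) held one. The hairpins of the abundant members and of a pair of low members are shown with 5 bases on each side and the hairpin in capitals, 5′ to 3′ on the gene's strand. They lie in the 3′ untranslated region, at chr13:23739507-23739532 (plus strand), chr13:22040961-22040986 (minus), chr11:58949344-58949369 (plus), chr6:136803993-136804018 (minus), chr3:96262934-96262959 (minus), chr13:23747198-23747223 (plus) and chr13:23745042-23745067 (minus) of GRCm38, in the order listed.
Hist1h1c: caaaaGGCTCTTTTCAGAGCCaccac
Hist1h4i: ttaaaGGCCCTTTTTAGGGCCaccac
Hist3h2ba: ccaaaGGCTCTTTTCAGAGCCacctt
Hist4h4: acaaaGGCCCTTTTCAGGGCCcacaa
Hist2h4: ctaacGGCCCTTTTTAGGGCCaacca
Hist1h2bb: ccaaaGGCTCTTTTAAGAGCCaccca
Hist1h3c: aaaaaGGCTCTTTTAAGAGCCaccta
The H4 genes printed here share the stem GGCCCT, and the H1, H2B and H3 genes share the stem GGCTCT. Hist2h2be and Hist1h2bc, both among the abundant members, gave no match to these letters in this window. The window was read on the spliced transcript. In Hist1h2bc the splice junction lies 9 bases after the stop, so the intron bases beyond it were not searched.

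Several members have annotated transcripts that run on past the hairpin to a poly(A) signal hexamer. AATAAA or ATTAAA lay in the last 40 bases of 16 of the 67 coding members (23.9%), against 70.4% of the other protein-coding genes. The last 30 bases of the annotated transcript are shown for 5 of the 6 most abundant members, with the hexamer in capitals. They end the transcripts at chr13:23740338-23740367 (plus), chr13:22040636-22040665 (minus), chr3:96223709-96223738 (plus), chr11:58949504-58949533 (plus) and chr6:136801553-136801582 (minus) of GRCm38.
Hist1h1c: ttctAATAAAaagcgtttagttttcattca
Hist1h4i: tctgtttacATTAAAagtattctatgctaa
Hist2h2be: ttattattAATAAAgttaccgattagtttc
Hist3h2ba: attAATAAAtttggttcaattttggccaca
Hist4h4: agaagatgctagaggagatgaAATAAAtac
The other one, Hist1h2bc, has no such hexamer in that window but an intron within the part after the stop codon, with the splice junction 9 bases after the stop. Hist1h2bq and Hist1h2br also have a splice junction there.

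The promoters were read from RefSeq (GRCm38.p6), where 61 members had an entry covering 250 bases before to 50 bases after the start. CCAAT, on either strand, occurred in the promoters of all 6 H1, 17 H2A, 16 H2B and 10 H3 genes with an entry and in 3 of 12 H4 genes, against 37.8% of 26964 other genes. TATAAA occurred in 57.4% of the member promoters and 14.1% of the others. ATTTGCA, the core of the octamer of histone promoters, occurred in 7 H2A and 6 H2B promoters and in 0 of the H1, H3 and H4 promoters, against 3.94% of the other genes. CCAAT and TATAAA do not overlap in the stretches shown. The 150 bases before the start are shown for 3 members with lower fitted values in KO described further on, with CCAAT and TATAAA of either strand in capitals, at chr13:23738657-23738806 (plus), chr11:58948761-58948910 (plus) and chr6:136804432-136804581 (minus).
Hist1h1c: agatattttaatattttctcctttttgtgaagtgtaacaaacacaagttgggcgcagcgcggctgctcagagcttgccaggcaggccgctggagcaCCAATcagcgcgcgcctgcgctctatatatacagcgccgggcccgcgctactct
Hist3h2ba: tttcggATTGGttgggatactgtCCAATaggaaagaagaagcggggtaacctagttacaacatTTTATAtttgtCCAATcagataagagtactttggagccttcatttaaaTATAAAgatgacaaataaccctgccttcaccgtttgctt
Hist4h4: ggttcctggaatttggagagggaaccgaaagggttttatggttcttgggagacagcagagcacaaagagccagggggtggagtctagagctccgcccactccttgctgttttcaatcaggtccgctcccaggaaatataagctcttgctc
The Hist4h4 stretch held none of these letters, Hist1h1c had 1 CCAAT, and Hist3h2ba had CCAAT and TATAAA on both strands.

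The libraries held 16364199 to 21355269 reads in KO and 16664802 to 21712608 in WT. Nfe2l2, which encodes Nrf2, was present in every library, with 63.4, 76.8 and 68.6 CPM (read counts scaled by library size after TMM normalization) in KO and 98.7, 71.0 and 75.2 CPM in WT. The groups overlapped (edgeR adjusted p 0.556). Since the counts cover the whole gene and the deleted part is not stated, they do not check the genotype labels. The labels give no sex, and Xist, the RNA of the inactive X chromosome in females, was at 15.4, 0.674 and 860 CPM in KO and 807, 924 and 1248 CPM in WT. KO replicate 3 was the single KO library at the WT level, and results are also given for that library alone against WT. The labelled erythroid cells had abundant erythroid markers: 7 of the 10 listed were tested, and their summed level was 19659 to 21937 CPM in KO and 29166 to 30449 CPM in WT. Each of the 7 was lower in every KO library than in every WT library, beside 7.91% of all 13721 genes tested. Their median log2 change was -0.72. The other 3, the globin symbols Hba-a1, Hbb-bt and Hbb-bs, were at or below 0.450 CPM in every library. Markers of other cells were present, and each had reads. Those of B cells summed to 14.5 to 55.1 CPM in KO and 32.6 to 145 CPM in WT, and those of T cells to 7.10 to 14.3 CPM in KO and 7.47 to 15.1 CPM in WT. Those of macrophages summed to 958 to 1126 CPM in KO and 793 to 971 CPM in WT. Those of neutrophils summed to 267 to 323 CPM in KO and 195 to 512 CPM in WT, and those of megakaryocytes and platelets to 125 to 156 CPM in KO and 109 to 286 CPM in WT. All 4 B cell markers and all 4 megakaryocyte and platelet markers had fitted values below 0 (KO over WT), and all 5 macrophage markers had fitted values above 0. The part of these marker levels in the histone values below was not tested. In bulk RNA, fewer cells of a type and less RNA per cell cannot be told apart.

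Histone reads were few in these libraries and lay in a handful of genes. The 69 members took 0.0284%, 0.0290% and 0.0393% of the reads in KO and 0.0348%, 0.0388% and 0.0383% in WT, 4912 to 6428 reads per KO library and 6472 to 7557 per WT library. Hist1h1c, which encodes a linker histone, held 30.4% of all histone reads. Hist1h4i (H4) held 13.7%, Hist1h2bc (H2B) 12.3%, Hist2h2be (H2B) 7.42%, Hist3h2ba (H2B) 6.98% and Hist4h4 (H4) 2.93%, which makes 73.8% for these 6. Of the rest, 8 members had no read in any library, 15 had a mean under 1 CPM and 32 a mean of 1 to 3 CPM. A count of 3 reads, the limit that a count of 0 allows, corresponds to 0.135 to 0.188 CPM in a library and covers counting error only.

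Per length of the annotated exons, 5 of the same genes led. Mean levels over all 6 libraries were 68.6 CPM per kb for Hist1h1c, 65.0 for Hist1h4i, 39.4 for Hist3h2ba, 37.6 for Hist1h2bc and 9.85 for Hist2h2be. No other member exceeded 8.89 CPM per kb. By group, Hist1h1c stood at 58.9 CPM per kb in KO and 78.2 in WT, and Hist1h4i at 59.9 in KO and 70.2 in WT.

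Of the 8 members without reads, 4 had no 50-base stretch found only in their own annotated transcript. For Hist2h2aa1, Hist2h2aa2, Hist2h3b and Hist2h3c1, every 50-base stretch of their transcripts also occurs in the transcript of another gene. Genes overlapping at the same place, on either strand, counted as other genes, and each of these 4 overlaps another annotated gene. Hist2h2bb was shared at 100% too, but had 227 reads and a mean of 2.04 CPM. Hist1h2aa and Hist1h2ba, which encode testis forms of H2A and H2B, Hist1h4b and Hist2h2ab were the other members with 0 reads, and 9 more had too few reads to be tested. Across the family, 36 members share more than 50% of their 50-base stretches with other transcripts and 13 more than 90%. The sources used here do not say how reads of such stretches were counted, and the levels of these genes are uncertain. The 6 with the most reads share less, at 8.54% for Hist1h1c, 28.9% for Hist1h4i, 30.6% for Hist1h2bc, 0% for Hist2h2be, 22.1% for Hist3h2ba and 8.14% for Hist4h4.

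**Figure D1:**
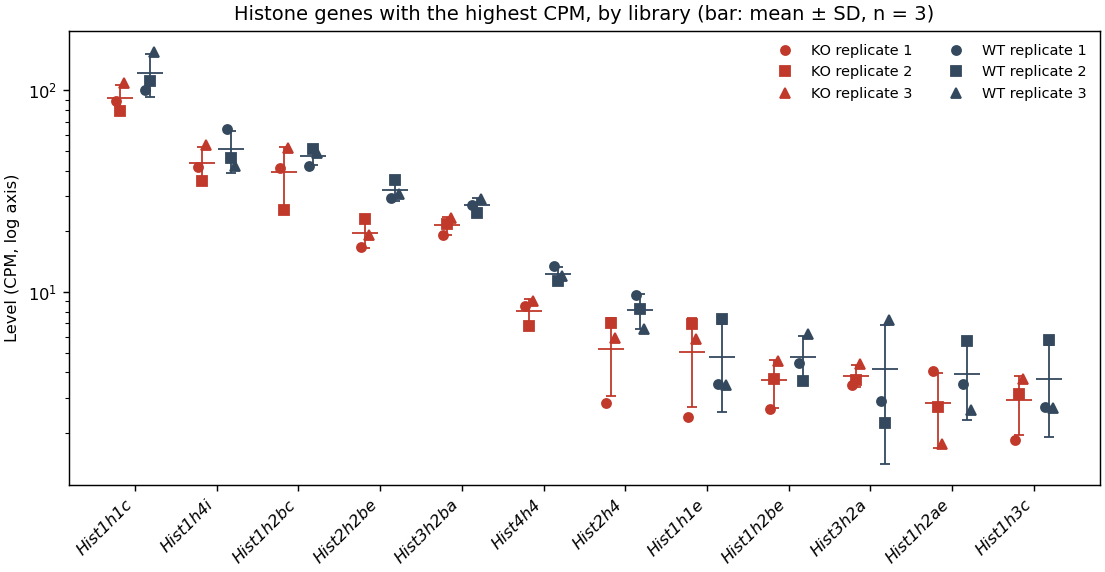
Level of the 12 most abundant histone genes in each library, in CPM on a log axis, with KO in red left of WT in blue and the mean ± SD of 3 libraries as bars. Hist2h2be, Hist3h2ba and Hist4h4 have all KO points below all WT points, while the groups overlap for Hist1h1c, Hist1h4i and Hist1h2bc.

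The reads were concentrated in genes whose annotated transcripts have a poly(A) hexamer or a splice junction after the stop codon, a feature examined after the levels had been seen. These 18 members held 80.4% of the histone reads and the other 51 held 19.6%. All 6 of the members with the most reads belonged to the 18, and so did 9 of the first 10. The typical member differed little between the sets, with a median level of 2.55 CPM per kb for the 18 and 2.13 CPM per kb for the other 51. The 16 with the hexamer alone held 68.0% of the reads.

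**Figure D2:**
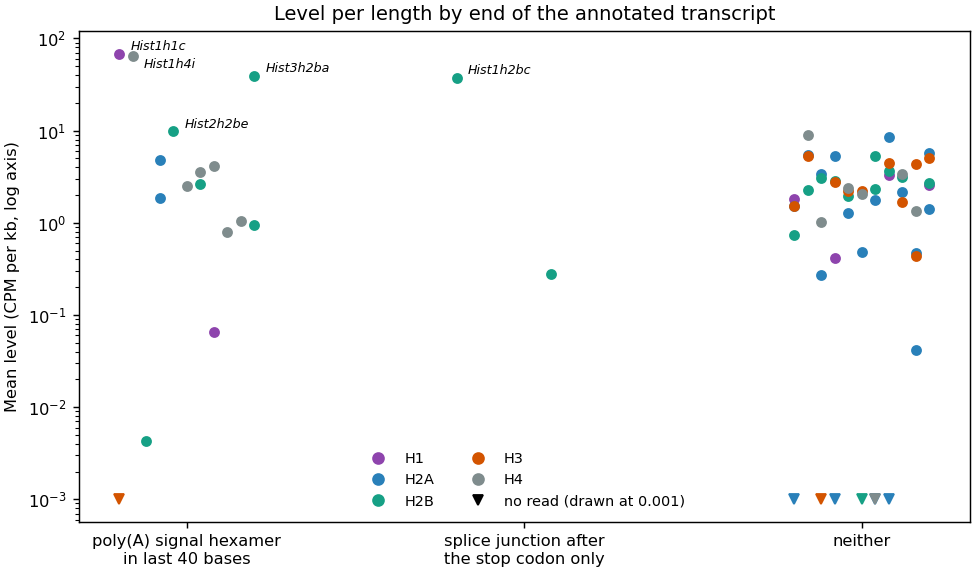
Mean level over 6 libraries of each of the 69 members, in CPM per kb of exon on a log axis, by the end of its annotated transcript and coloured by class. The 5 named genes have a poly(A) hexamer or a splice junction after the stop codon, and the other members lie at or below 8.89 CPM per kb.

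KO and WT were compared for 52 members that passed edgeR's filter on low counts, among 13721 genes. No member passed an adjusted p (Benjamini-Hochberg over all genes) of 0.05 by edgeR's quasi-likelihood test, where 0.0219% of all genes did (3 genes, all lower in KO). At an unadjusted p under 0.05 there were 6 members lower in KO and 0 higher, which is 11.5% and 0% of the 52, beside 5.98% of all genes lower and 6.25% higher. The 6 were Hist2h2be, Hist4h4, Hist1h2bb, Hist1h2bl, Hist3h2ba and Hist1h1c. Hist1h2bl falls outside the rule for named genes and was picked after its values were seen. DESeq2 called 1 member, Hist2h2be, of the 5 to which it gave an adjusted p, beside 6.07% of 6538 genes. EdgeR without a filter called the same gene of 61 members with reads, beside 1.05% of 21680 genes, and limma-voom called 0 members and 0 genes.

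The fitted change was below 0 for 38 of the 52 members (73.1%), beside 47.1% of all genes. The median log2 change of KO over WT was -0.32 for the members and 0.02 for all genes, and the members ran from -1.95 to 1.07. Every KO library lay below every WT library for 6 members (11.5%, beside 7.91% of all genes), and every KO library lay above every WT library for 1 member (1.92%, beside 10.3%). That member was Hist1h2bg, an H2B gene at 1.29, 1.35 and 1.55 CPM in KO and 0.996, 0.941 and 1.17 CPM in WT, with a log2 change of 0.43 and an edgeR adjusted p of 0.766. It was named after its values were seen.

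This direction rested in part on single libraries. With KO replicate 3, the KO library with Xist at the WT level, set alone against WT, the median log2 change was 0.043, with 24 of the 52 below 0. Without WT replicate 2 it was -0.07 with 33 of 55 below 0, and without KO replicate 1 it was -0.21. Without KO replicate 3 it was -0.44 with 49 of 55 below 0. Of the 21 members named by rule, 10 kept the sign of their fitted change under every alternative that gave them an adjusted p. The other 11 changed it under at least 1, as given with each below. Each member had 13 to 15 such alternatives, and a fit that gave a member no adjusted p was not read for it.

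**Figure D3:**
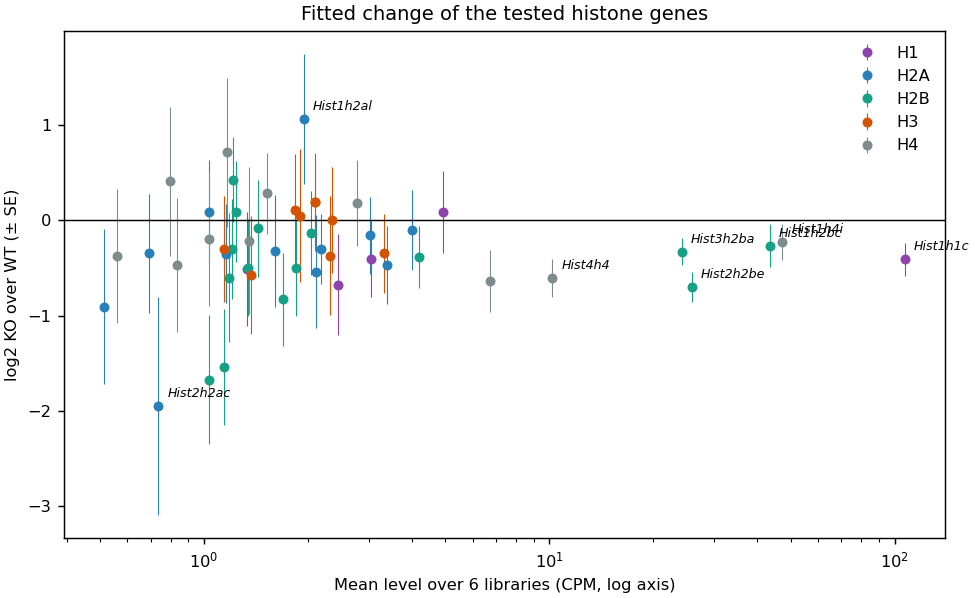
Fitted log2 change of KO over WT, with its standard error, against the mean level in CPM on a log axis for the 52 tested members, coloured by class. The 6 abundant genes at the right lie between -0.70 and -0.23 with short bars, and the low genes at the left scatter from -1.95 to 1.07 with long ones.

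The members with the most reads had the smaller errors as a group. The standard error (SE) of the log2 change had a median of 0.18 (0.143 to 0.226) for the 6 most abundant members and of 0.54 (0.327 to 1.15) for the other 46. Within the 6 it did not follow the reads, with 0.174 for Hist1h1c on 11609 reads and 0.143 for Hist3h2ba on 2666.

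The reads of all members together summed to 276, 278 and 368 CPM in KO and 359, 406 and 410 CPM in WT. The mean was 308 ± 52.5 in KO and 391 ± 28.4 CPM in WT (SD, n = 3 each), a log2 ratio of -0.35. KO replicates 1 and 2 lay below all WT libraries, and KO replicate 3 lay within the WT range. No p is given for sums over members. With KO replicate 3 alone the ratio was -0.088, and leaving out each library in turn gave -0.50 to -0.30. Without the 8 most abundant members, an alternative chosen after seeing the data, it was -0.25.

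Among the linker histones, 4 of 5 tested genes had fitted values below 0, with a median of -0.41. Linker reads came mainly from Hist1h1c, which had 88.8, 78.9 and 108 CPM in KO and 100.1, 111 and 155 CPM in WT. KO replicates 1 and 2 were lowest, and KO replicate 3 exceeded WT replicate 1. The log2 change was -0.41 (SE 0.174, edgeR adjusted p 0.387), and -0.20 without WT replicate 3 and -0.17 with KO replicate 3 alone.

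Hist1h1e, another somatic linker histone gene, had 2.42, 6.92 and 5.84 CPM in KO and 3.51, 7.34 and 3.46 CPM in WT, a log2 change of 0.09 (SE 0.430, edgeR adjusted p 0.958). It overlaps Hist1h2be on the same strand, so their shared reads are uncertain. Hist1h1d had 2.19, 3.50 and 2.12 CPM in KO and 2.04, 4.95 and 3.46 CPM in WT, with a log2 change of -0.41 (SE 0.403). Both genes spread more within the groups than between them, and the value of Hist1h1e was -0.22 without KO replicate 2, -0.032 without KO replicate 3, -0.088 without WT replicate 1 and -0.089 without WT replicate 3.

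Hist1h1b stood at 0.900, 1.53 and 3.21 CPM in KO and 1.61, 4.70 and 2.72 CPM in WT (log2 change -0.68, SE 0.533). Hist1h1a stood at 0.506, 0.674 and 2.12 CPM in KO and 1.14, 2.20 and 1.36 CPM in WT (log2 change -0.51, SE 0.602). In both, KO replicates 1 and 2 were low and KO replicate 3 lay inside the WT range. With KO replicate 3 alone, the log2 change was 0.098 for Hist1h1b and 0.44 for Hist1h1a. Hist1h1t, the testis linker histone, had 6 reads in all and was not tested. The H1 sum was 94.9, 91.5 and 122 CPM in KO and 108, 130 and 166 CPM in WT (log2 ratio -0.39).

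The H2B genes held 4 of the 6 members at an unadjusted p under 0.05 and 5 of the 6 with every KO library below every WT library. H2B is also the class with the most tested genes, 15 of the 52. Within the class it was 4 of 15 and 5 of 15, beside 5.98% and 7.91% of all genes. The 1 member with every KO library above every WT library, Hist1h2bg, is also an H2B gene. Of 15 tested, 13 had fitted values below 0, with a median of -0.38. Their sum was 91.6, 86.9 and 114 CPM in KO and 119, 137 and 133 CPM in WT, a log2 ratio of -0.41. It was the one class in which the group sums did not overlap, with KO replicate 3 just below WT replicate 1. With KO replicate 3 alone the ratio was -0.19.

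Hist2h2be had the smallest p of the members. It stood at 16.8, 23.0 and 19.2 CPM in KO and 29.2, 36.0 and 30.7 CPM in WT, with means of 19.7 ± 3.09 CPM in KO and 32.0 ± 3.58 CPM in WT (SD, n = 3 each). All KO libraries were below all WT libraries, KO replicate 3 among them. The log2 change was -0.70 (SE 0.158, edgeR adjusted p 0.138), which misses the threshold. DESeq2 gave an adjusted p of 0.00415 and edgeR without a filter 0.00918, and over the alternatives the adjusted p ran from 0.00415 to 0.576 and the log2 change from -0.84 to -0.57. The gene lies at chr3:96221119-96223738 on the plus strand, and its transcript was shown above to end in an AATAAA hexamer with no hairpin match.

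Hist3h2ba stood at 19.2, 21.7 and 23.4 CPM in KO and 27.0, 24.6 and 29.1 CPM in WT. The groups did not overlap, but KO replicate 3 and WT replicate 2 lay close together. The log2 change was -0.33 (SE 0.143, edgeR adjusted p 0.387), and -0.20 with KO replicate 3 alone.

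Hist1h2bc, the H2B gene with the most reads and an intron after its stop codon, had 41.2, 25.5 and 51.7 CPM in KO and 42.2, 51.4 and 48.7 CPM in WT. KO replicate 2 stood apart at the low end, and KO replicate 3 was the highest of all 6. The log2 change was -0.27 (SE 0.226, edgeR adjusted p 0.701), which lies within the spread, and its sign was reversed at 0.12 with KO replicate 3 alone.

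The low H2B genes had wider errors. Hist1h2bb had 0.675, 0.764 and 0.286 CPM in KO and 1.38, 2.89 and 0.865 CPM in WT, with a log2 change of -1.54 (SE 0.611, edgeR adjusted p 0.345). Hist1h2bl had 0.225, 0.225 and 1.03 CPM in KO and 1.28, 2.26 and 1.17 CPM in WT, with a log2 change of -1.68 (SE 0.678, edgeR adjusted p 0.359). In both genes every KO value lay below every WT value and WT replicate 2 was the highest, on 123 reads in all for Hist1h2bb and 109 for Hist1h2bl. Hist1h2bj, another H2B gene with every KO value below every WT value, named after its values were seen, had 1.35, 1.30 and 0.974 CPM in KO and 1.57, 3.58 and 1.36 CPM in WT (log2 change -0.83, SE 0.489, edgeR adjusted p 0.539).

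**Figure D4:**
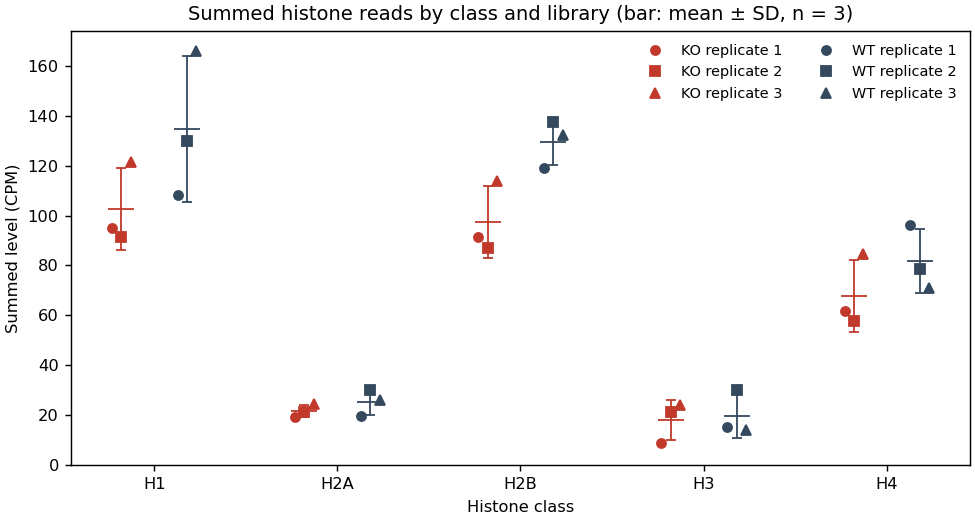
Summed level of each histone class in each library, in CPM, with KO in red left of WT in blue and the mean ± SD of 3 libraries as bars. The H2B sums of the 3 KO libraries (86.9 to 114 CPM) lie below those of the 3 WT libraries (119 to 137 CPM), and the groups overlap in the other classes.

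The H2A genes were low throughout and none reached an unadjusted p under 0.05, beside 12.2% of all genes. Of 12 tested, 10 had fitted values below 0 (median -0.33), and the H2A sum was 19.3, 21.03 and 24.2 CPM in KO and 19.7, 30.1 and 26.2 CPM in WT (log2 ratio -0.23). Hist3h2a had 3.49, 3.68 and 4.41 CPM in KO and 2.90, 2.26 and 7.29 CPM in WT (log2 change -0.10, SE 0.422), and it overlaps Trim17 on the same strand. WT replicate 3 stood highest, and without it the log2 change of Hist3h2a was 0.58. That gene was also above 0 with KO replicate 3 alone (0.093), library totals (0.042), limma-voom (0.098) and the replicate block (0.067). Hist1h2ae had 4.05, 2.70 and 1.78 CPM in KO and 3.51, 5.71 and 2.59 CPM in WT (log2 change -0.47, SE 0.408).

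The ends of the H2A range were set by genes with few reads. Hist2h2ac had 0.169, 0 and 0.745 CPM in KO and 0.142, 1.88 and 1.48 CPM in WT, so WT replicate 1 was as low as KO replicate 1. Its log2 change was -1.95 (SE 1.15, edgeR adjusted p 0.547). Hist1h2al had 2.08, 1.26 and 4.58 CPM in KO and 1.57, 0.251 and 1.91 CPM in WT, with WT replicate 2 lowest and KO replicate 3 highest, a log2 change of 1.07 (SE 0.680, edgeR adjusted p 0.582).

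Hist1h2al and Hist1h2aj are annotated as pseudogenes in GENCODE M21, and Hist1h2al lies apart from the other Hist1 genes, at chr13:51202727-51203065. Hist1h2aj had 2.59, 4.27 and 1.72 CPM in KO and 2.71, 4.33 and 2.59 CPM in WT (log2 change -0.16, SE 0.406), with 0.12 without WT replicate 2 and 0.092 without KO replicate 3. Of its 50-base stretches, 93.1% also occur in other transcripts.

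The H3 genes showed no common direction: 4 of 9 tested had fitted values below 0 and 5 above, with a median of 0.01. An unadjusted p under 0.05 was reached by 0 of them, beside 12.2% of all genes. Their sum was 8.83, 21.1 and 24.2 CPM in KO and 15.3, 29.9 and 13.8 CPM in WT (log2 ratio -0.12). KO replicate 1 was lowest and WT replicate 2 highest. Leaving out WT replicate 2 turned the ratio to 0.31, leaving out KO replicate 1 turned it to 0.18, and scaling by library totals gave 0.01.

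Hist1h3c, the H3 gene with the most reads, had 1.86, 3.15 and 3.72 CPM in KO and 2.71, 5.77 and 2.66 CPM in WT (log2 change -0.35, SE 0.412). Hist1h3a had 1.24, 1.89 and 2.92 CPM in KO and 1.42, 5.46 and 0.988 CPM in WT (log2 change -0.37, SE 0.626). WT replicate 2 was the highest library for both. Without it, the log2 change was 0.12 for Hist1h3c and 0.73 for Hist1h3a, and with KO replicate 3 alone it was 0.0093 for Hist1h3c and 0.16 for Hist1h3a.

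Hist1h3g had 1.07, 3.06 and 2.92 CPM in KO and 0.902, 3.89 and 2.29 CPM in WT (log2 change 0.01, SE 0.558). Hist1h3b had 0.394, 0.988 and 1.89 CPM in KO and 0.854, 2.57 and 1.48 CPM in WT (log2 change -0.58, SE 0.623). KO replicate 1 and WT replicate 1 were the lowest of their groups for both genes. Hist1h3b was at 0.22 with KO replicate 3 alone. The value of Hist1h3g, close to 0, lay on either side of it with the setting, at -0.39 to 0.58 when each library was left out.

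Of 11 tested H4 genes, 7 had fitted values below 0 (median -0.21). Their sum was 61.6, 57.7 and 84.4 CPM in KO and 96.1, 78.4 and 70.8 CPM in WT (log2 ratio -0.27), with KO replicate 3 inside the WT range and a ratio of 0.046 with that library alone. Hist1h4i carried most of it, with 41.7, 35.5 and 53.5 CPM in KO and 64.6, 46.1 and 42.4 CPM in WT. The groups overlapped, WT replicate 1 stood highest, and the log2 change was -0.23 (SE 0.190, edgeR adjusted p 0.688), with a value of 0.066 for KO replicate 3 alone.

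Hist4h4, the single gene of its cluster, had 8.49, 6.78 and 8.99 CPM in KO and 13.5, 11.4 and 12.0 CPM in WT. All KO libraries were below all WT libraries. The log2 change was -0.61 (SE 0.197, edgeR adjusted p 0.259), and -0.45 with KO replicate 3 alone. Hist2h4 had 2.81, 7.05 and 5.90 CPM in KO and 9.73, 8.28 and 6.55 CPM in WT, with KO replicate 2 above WT replicate 3 (log2 change -0.64, SE 0.330, edgeR adjusted p 0.475).

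By cluster, the sums of the genes on chromosomes 3 and 6 had no overlap between groups. The Hist2 sum was 22.5, 32.0 and 28.1 CPM in KO and 42.7, 47.5 and 41.7 CPM in WT, a log2 ratio of -0.67, and it was -0.64 with KO replicate 3 alone. Hist2h2be makes up most of these reads, and 5 of the 10 Hist2 genes had none. Hist4 is Hist4h4 itself.

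The large Hist1 cluster summed to 223, 214 and 303 CPM in KO and 273, 320 and 319 CPM in WT (log2 ratio -0.30). KO replicate 3 lay inside the WT range, and with it alone the ratio was -0.0035. The Hist3 pair summed to 22.7, 25.3 and 27.8 CPM in KO and 29.9, 26.9 and 36.4 CPM in WT (log2 ratio -0.30).

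Within Hist1, the genes fall into a pair of blocks on chromosome 13 and the lone Hist1h2al. In chr13:21715763-22043676, 15 of 18 tested members had fitted values below 0 (median -0.32), and in chr13:23531050-23934851 it was 16 of 26 (median -0.31). The first block held 21.9% of the histone reads and the second 56.2%.

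By transcript end, the summed levels of both sets were lower on average in KO. The 18 members with a poly(A) hexamer or a splice junction after the stop codon summed to 232, 212 and 288 CPM in KO and 301, 304 and 348 CPM in WT, a log2 ratio of -0.38, with no overlap. The other 51 summed to 44.5, 65.8 and 79.8 CPM in KO and 57.4, 102 and 61.1 CPM in WT, a log2 ratio of -0.21, with overlap. The median log2 change was -0.38 over 13 tested genes of the first set and -0.30 over 39 of the second. The 6 most abundant members are all in the first set and held 73.8% of the histone reads, beside 80.4% for that whole set. Alone they gave a log2 ratio of -0.38, and the members below them gave -0.26. Transcript end and abundance are therefore not separated here, and the difference between the sets was not tested.

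Single libraries stood out across the members. On log2(CPM + 0.5), the median deviation from a gene's own mean was -0.33, -0.13 and 0.21 in KO replicates 1, 2 and 3 and -0.06, 0.43 and 0.03 in WT replicates 1, 2 and 3. WT replicate 2 was the highest library for 28 of the 52 members (53.8%), where 17.8% of all tested genes had their highest value there. KO replicate 1 was the lowest for 20 (38.5%), where 15.3% of all genes had their lowest value there, and the highest for 0. The widest ranges were those of H1, with -0.77 in KO replicate 1 and 0.65 in WT replicate 2, and of H3, with -0.69 and 0.74 in the same libraries.

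**Figure D5:**
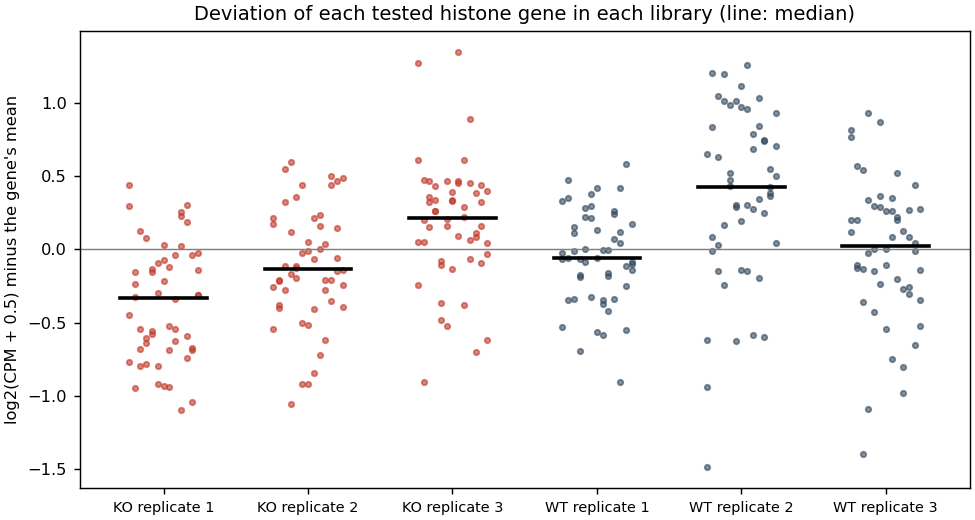
Deviation of each of the 52 tested members from its own mean over the 6 libraries, on log2(CPM + 0.5), with KO libraries left of WT libraries and the median as a line. The medians run from -0.33 in KO replicate 1 to 0.43 in WT replicate 2, and KO replicate 3 (0.21) lies above WT replicates 1 and 3.

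The genes that process histone messages were read from a list of 29, of which 26 were tested. Their fitted values were below 0 in 13 and above 0 in 13 (median 0.00), with 2 higher and 1 lower at an unadjusted p under 0.05 and 0 past the adjusted threshold. Of all genes, 6.25% were higher and 5.98% lower at the unadjusted p, and 0.0219% passed the adjusted threshold. Slbp, the hairpin-binding protein, had 435, 494 and 382 CPM in KO and 514, 482 and 503 CPM in WT (log2 change -0.19, SE 0.115, edgeR adjusted p 0.547). KO replicates 1 and 3 lay below the WT libraries and KO replicate 2 between them. Npat, the coactivator of histone gene transcription, had a log2 change of -0.05, and Casp8ap2, a partner in the histone locus body, -0.19. Lsm10 and Lsm11, subunits of the U7 particle that cuts histone messages, had 0.18 and 0.25, and each of these genes overlapped between groups.

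The listed genes with the smallest p in that set had no overlap. Every KO library lay below every WT library for 2 of the 26 tested and above for 3, beside 7.91% and 10.3% of all genes. Ybx1, an RNA and Y-box binding protein, stood at 635, 579 and 630 CPM in KO and 437, 434 and 459 CPM in WT (log2 change 0.47, edgeR adjusted p 0.114). Cdk2, the kinase of S phase entry, stood at 127, 137 and 120 CPM in KO and 151, 153 and 162 CPM in WT (log2 change -0.28, edgeR adjusted p 0.292). Cpsf3, the nuclease that cleaves histone pre-messages, stood at 39.1, 38.5 and 38.6 CPM in KO and 33.2, 30.0 and 31.4 CPM in WT (log2 change 0.30, edgeR adjusted p 0.339).

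Histone chaperones, which carry histones to and from DNA, gave 13 fitted values above 0 and 13 below among 26 tested (median 0.03). At an unadjusted p under 0.05, 3 were higher and 1 lower, beside 6.25% and 5.98% of all genes. Every KO library lay above every WT library for 6 of the 26 and below for 0, beside 10.3% and 7.91% of all genes. Npm1 had 810, 686 and 786 CPM in KO and 457, 463 and 546 CPM in WT, all KO libraries above all WT libraries (log2 change 0.64, edgeR adjusted p 0.0906). DESeq2, library totals as the scaling and edgeR without a filter called Npm1 and Ybx1. Nasp, a chaperone of H3 and H4 and of H1, had 220, 218 and 192 CPM in KO and 172, 168 and 183 CPM in WT (log2 change 0.27, edgeR adjusted p 0.327). Rbbp7 had a log2 change of 0.21, also with no overlap. The lower one was Cabin1, named after its values were seen, at -0.25 with overlap.

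Histone variants that are made also outside of S phase mostly have ordinary polyadenylated messages. Of 11 tested, 8 had fitted values below 0 (median -0.17). At an unadjusted p under 0.05, 1 was lower and 0 higher, beside 5.98% and 6.25% of all genes. The lower one was H2afx, which encodes the H2A variant phosphorylated at DNA breaks, with 402, 362 and 403 CPM in KO and 508, 572 and 510 CPM in WT (log2 change -0.45, SE 0.105, edgeR adjusted p 0.144). All KO libraries were below all WT libraries, KO replicate 3 among them. DESeq2 and edgeR without a filter called it. In this list, 3 of the 11 tested had every KO library below every WT library and 0 above, beside 7.91% and 10.3% of all genes. H3f3a and H3f3b, which encode H3.3, had log2 changes of -0.26 and -0.12, H2afz 0.16, H1f0 -0.21 and Cenpa -0.17.

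Genes of DNA replication, which are used in the same phase as most histone genes, gave 21 fitted values above 0 and 19 below among 40 tested (median 0.01). At an unadjusted p under 0.05 there were 0, beside 12.2% of all genes. Every KO library lay below every WT library for 1 of the 40 and above for 2, beside 7.91% and 10.3% of all genes. Rrm2, a subunit of ribonucleotide reductase, had 1085, 1038 and 1007 CPM in KO and 1388, 1157 and 1150 CPM in WT, without overlap (log2 change -0.24, edgeR adjusted p 0.423). Pcna, the sliding clamp, had 852, 831 and 838 CPM in KO and 921, 838 and 876 CPM in WT (log2 change -0.06). Top2a was at -0.23 and Tk1 at -0.21, both with overlap between the groups.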

How the data were processed

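Libraries were made per the labels' protocols from 1 ug of total RNA with an Illumina TruSeq version 2 kit, a type that keeps no strand information. What the authors deposited is a table of whole-number read counts for each gene symbol. Per the submitters' processing notes STAR 2.5, HTSeq, DESeq2 and mm10 were used, with no roles stated. The sources used here give neither the gene annotation nor the strand setting. Reads of overlapping genes and antisense partners therefore cannot be told apart.

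Of 35275 lines, 27 had a name turned into a date (0.340% to 0.383% of a library's reads) and were left out, and 122 that shared a symbol were summed. Groups came from the labels. No 2 libraries were within sampling noise: the closest pair differed by a chi-square of 19.6 per gene over genes with at least 10 reads. The replicate numbers are not stated to pair the libraries. Correlations of the libraries' deviations from their group mean were 0.012 to 0.107 between same-numbered libraries and -0.106 to 0.049 between the others.

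The test for all genes was that of edgeR 4.0.16 under R 4.3.3 (filterByExpr, TMM scaling, robust dispersions, quasi-likelihood F test, Benjamini-Hochberg adjustment, threshold 0.05), after a test of the script on simulated data. Log2 changes (KO over WT) used 0.125 as the prior count. CPM are the deposited counts divided by TMM-scaled library sizes. Between libraries, the biological coefficient of variation came to 0.223. With 3 libraries against 3, the smallest two-sided p of an exact permutation test is 0.1. Alternatives were other scalings, DESeq2 1.42.0, limma-voom (limma 3.58.1), other filters, a replicate block, KO replicate 3 alone against WT and each library left out. For KO replicate 3 alone, the other KO libraries stayed in the fit as a separate group, so its filter, scaling and dispersions still used them.

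The members and lists were chosen with earlier results of these data known. Named are, in each class, the 3 tested members with the highest mean CPM and the 2 with the smallest p, any member past the threshold, each tested H1 gene, and, of the other lists, the 3 tested genes with the smallest p and a fixed set of regulators and variants. Transcripts, hairpins and ends came from GENCODE M21 and promoters from RefSeq (GRCm38.p6).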

Additional observations from a re-analysis of the deposited data

How the results depend on the processing

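The number of genes called, 3 in the edgeR test, was 10 with DESeq2 size factors (1 higher, 9 lower), 8 with upper quartile scaling, 33 with library totals (24 higher, 9 lower, with a median of all genes of 0.15), 397 with DESeq2 (92 higher, 305 lower), 228 with no filter, 9 with the filter of 1 CPM in 3 libraries, 6 with KO replicate 3 alone, 9 with the replicate block, 0 with limma-voom (1681 at an unadjusted p under 0.05) and 0 to 14 when each library was left out; the cause was not tested. Histone genes called were 1 with DESeq2 and 1 with no filter, Hist2h2be in both, and 0 in the others. With the replicate block, 7 histone genes had an unadjusted p under 0.05 (6 lower) beside 6 without it, and no histone call changed; the correlations of same-numbered libraries' deviations were 0.107, 0.055 and 0.012. Leaving out each library gave 3 to 9 histone genes at an unadjusted p under 0.05, all lower except 1 without WT replicate 3, and a median log2 change of -0.44 to -0.07. In the main fit, 12.2% of all genes reached that p. The shares of all genes with the replicate block and with each library left out are not given here, so these counts are not read as an excess. With KO replicate 3 alone, 24 histone genes were below 0 and the median log2 change was 0.043. The log2 ratio of sums was then -0.088 for all members, -0.19 for H2B, 0.046 for H4 and -0.0035 for Hist1. Library totals moved the histone median to -0.20 and the ratio of sums to -0.21. Leaving out each library gave sums of -0.54 to -0.22 for H1, -0.38 to -0.09 for H2A, -0.55 to -0.35 for H2B, -0.40 to 0.31 for H3 and -0.46 to -0.13 for H4. A comparison over members with identical proteins was not run, since no protein sequences were used here. The standard errors, wider for the members outside the 6 with the most reads, hold both counting error and the spread between libraries, whose shares were not tested.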
